A study of Drosophila melanogaster with 27 samples.

Results

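Serpins are a family of proteins most of which block serine proteases, and the genes described here are the 25 fruit fly serpin genes of the deposited expression table, out of 11923 genes in all. They were taken by symbol, as every gene named Spn followed by a digit, plus necrotic (nec) and Acp76A where listed. The choice was made with earlier results of these data known. Of the 29 serpins with such names in the BDGP6.54 annotation (Ensembl), 25 are in the table and 4 (Acp76A, Spn28Da, Spn53F and Spn75F) were not analysed here. RNA came from pooled heads of Drosophila melanogaster females of the wild-type strain Oregon-R, 20 heads to a library. The flies compared were 50 days and 3 days old, with 3 libraries at each age, and both ages were kept at 25 °C on what the labels call CD. No transgene, mutation or drug was part of either group. A head holds brain, eyes, fat body, blood cells and cuticle together. For a higher or a lower value, a change in the share of a cell type cannot be told apart from a change in RNA per cell.

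A serpin offers an exposed loop as bait to a protease. Cutting the loop traps the enzyme in a stable complex, so each serpin molecule is used up once. In flies the best known serpins act in the blood, where they hold back 2 protease cascades. One of these ends with the cleavage of Spätzle, the ligand of the Toll receptor, and leads to antimicrobial peptides made largely by the fat body. The other activates prophenoloxidase and deposits melanin at wounds and around microbes. Both are controlled by serpins because an unchecked cascade damages the fly's own tissue.

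The values are read as FPKM, a measure corrected for gene length and depth, which allows levels to be compared between genes. Sequencing depth is not given in the sources used here, and from the lowest step of the values, 1 FPKM in a gene of 1 kilobase is estimated at 16.2 to 20.9 fragments. The number of genes at 1 FPKM or more ran from 8558 to 8806. Markers of the tissue were present at both ages: the 5 neuronal markers summed to between 266 and 322 FPKM in 50-day libraries and between 389 and 459 FPKM in 3-day libraries, and the 5 photoreceptor markers to 13192 to 16918 FPKM at 50 days and 15370 to 17996 FPKM at 3 days. The 4 gut markers listed in the table stayed under 1 FPKM in sum (0.579 to 0.936 at 50 days, 0.197 to 0.561 at 3 days), as did the 5 ovary markers (0.0976 to 0.281 at 50 days, 0.0414 to 0.0456 at 3 days). Of the male accessory gland markers 2 were in the table, at 0 to 0.0160 FPKM in sum at 50 days and 0 to 0.517 FPKM at 3 days. The testis list was not near 0: its 5 markers in the table summed to 19.5 to 22.9 FPKM at 50 days and 29.2 to 33.6 FPKM at 3 days, of which bol alone gave 18.5 to 22.1 FPKM at 50 days and 28.4 to 32.7 FPKM at 3 days. One library stood apart. In 3-day replicate 2, 33 genes at or above 1 FPKM were at least 10 times as high as in every other library. Each of the others had 0 to 5 such genes.

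Of the 25 serpins, 15 had a mean of at least 1 FPKM over the 6 libraries after scaling and were tested, and all 15 reached that mean in both ages. At 50 days 12 of the 15 were called higher and 2 lower by limma with a Benjamini-Hochberg adjusted p under 0.05 over all 8742 genes tested. Across all genes tested, 18.3% were called higher and 20.8% lower, 39.1% in all. In scaled values the 3 libraries of one age lay wholly above or below the 3 of the other in the same 14 serpins, 12 of them higher, where 54.3% of all genes separated so (26.0% higher, 28.3% lower). Log2 changes are 50 days minus 3 days on log2(FPKM + 1), a scale on which low genes change by less than their ratio. The median log2 change was 0.72 for the 15 serpins and -0.0011 for all genes tested. Of the called serpins, 8 had scaled means at least 2 times as high at 50 days, and 5 changed by at least 1 on the log2(FPKM + 1) scale. With library sums made equal, 9 serpins were called higher and 2 lower. That scaling shifted the median of all genes to -0.26 and split the 3859 genes called into 734 higher and 3125 lower, against 1604 and 1814 as reported.

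**Figure D1:**
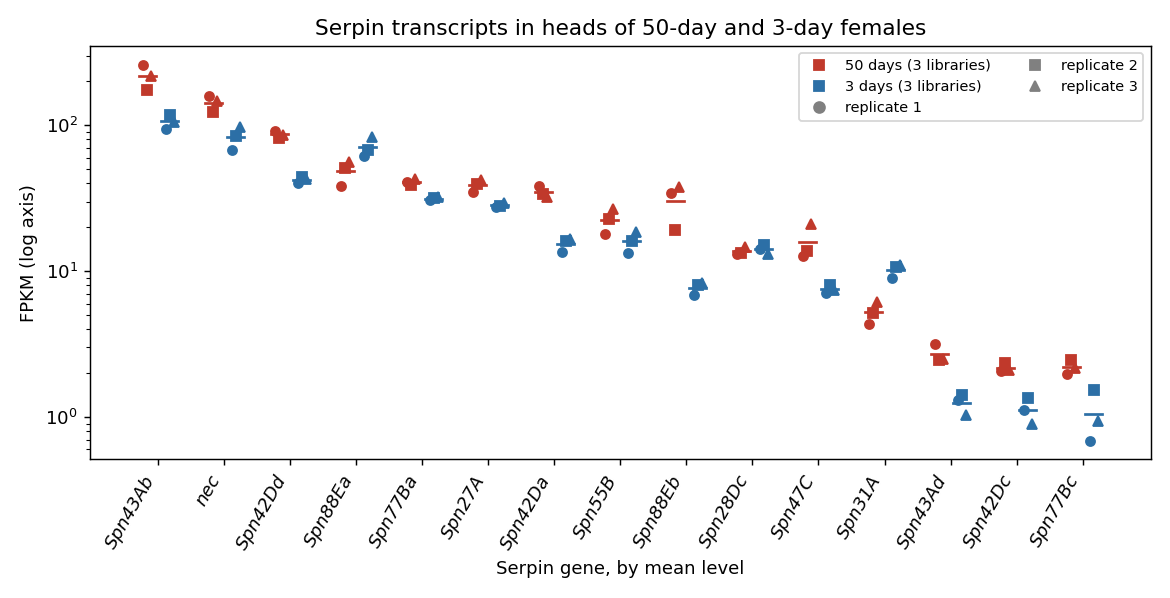
FPKM (vertical, log axis) of the 15 serpins tested, ordered by mean level, in the 3 libraries from 50-day heads (red, left) and the 3 from 3-day heads (blue, right); bars mark the means and symbols the replicates. The 50-day points lie above the 3-day points in the serpins called higher other than Spn55B, and below them in Spn88Ea and Spn31A, and the ages overlap in Spn28Dc and Spn55B.

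Together the 25 serpins summed to 753, 625 and 738 FPKM in 50-day replicates 1 to 3, against 391, 458 and 469 FPKM in 3-day replicates 1 to 3. As a share of all FPKM in the library this was 0.140%, 0.124% and 0.143% at 50 days, and 0.0914%, 0.102% and 0.0934% at 3 days. The groups did not overlap on either scale. A few genes carried most of it. Spn43Ab, nec and Spn42Dd made up 60.7% to 67.6% of the serpin sum at 50 days and 52.0% to 53.6% at 3 days. Spn43Ab ranked 1 and nec ranked 2 at both ages, while Spn42Dd ranked 3 at 50 days and 4 at 3 days, having changed places with Spn88Ea.

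Among serpins known to restrain Toll signalling, nec and Spn42Dd were called higher and Spn88Ea lower. The Spn88Ea call was the least firm of these. Spn27A and Spn77Ba, which also bear on Toll and are described below with melanization, were called higher. The nec product blocks the branch of the pathway that fungal proteases trigger through Persephone, and flies without it switch on Toll without infection. It had 157, 123 and 146 FPKM at 50 days, against 68.0, 83.8 and 97.0 FPKM at 3 days. The lowest 50-day library lay above the highest 3-day library. It rose by 0.88 on the log2 scale (SE 0.16, adjusted limma p 0.00385), with means of 142 ± 17.6 FPKM at 50 days and 83.0 ± 14.5 FPKM at 3 days (SD, n = 3 each). Spn42Dd, also called Spn1, restrains the Toll branch that senses fungal cell walls. Its values were 91.7, 81.7 and 86.2 FPKM at 50 days and 40.3, 44.0 and 42.98 FPKM at 3 days. The libraries of each age were close together and the ages far apart, with a ratio of scaled means of 2.21 (log2 change 1.12, SE 0.097, adjusted limma p 0.000174). Spn88Ea, known as Spn5, restrains Toll as well and is needed for the wings to expand in newly emerged flies. It went the other way, with 38.3, 50.6 and 55.8 FPKM at 50 days against 61.3, 67.4 and 83.1 FPKM at 3 days. The ages did not overlap (log2 change -0.44, SE 0.14, adjusted limma p 0.0396). That call rests on the full set of libraries: it was lost when 3-day replicate 2 or 3 was left out (adjusted p 0.0715 and 0.0869), when 50-day replicate 1 or 2 was left out (0.118 and 0.0791), and when no filter on low values was applied (0.0641). The 14 alternatives gave adjusted p-values between 0.00190 and 0.118.

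The brakes on melanization changed little or moderately. Spn27A inhibits the protease step before prophenoloxidase in the blood, and in the egg it limits Easter, the protease that sets the dorsoventral axis. It had 35.0, 39.4 and 42.3 FPKM at 50 days and 27.7, 28.2 and 29.2 FPKM at 3 days. The 3-day libraries were nearly alike and all lay below the 50-day ones, and the rise was 0.54 on the log2 scale (SE 0.075, adjusted limma p 0.00114). Spn77Ba prevents melanization in the airways, where its loss also turns on Toll at a distance. It had 41.0, 38.8 and 42.97 FPKM at 50 days and 30.6, 31.6 and 32.0 FPKM at 3 days, again without overlap (log2 change 0.48, SE 0.081, adjusted limma p 0.00277). Spn28Dc limits phenoloxidase activity in the blood and at wounds. Its values were 13.2, 13.4 and 14.6 FPKM at 50 days, against 14.2, 15.1 and 13.1 FPKM at 3 days. The ages overlapped, and it was the 1 tested serpin without a call (log2 change 0.066, SE 0.078, adjusted limma p 0.532). Its sign turned with the values unscaled (-0.035) and with library sums made equal (-0.20). Equal sums also ended the calls of Spn27A (0.27, adjusted p 0.111) and Spn77Ba (0.20, adjusted p 0.191). With the 10 most abundant genes of each library also removed, both calls held nearer the threshold (0.35, adjusted p 0.0257, and 0.28, adjusted p 0.0446). The 14 alternatives spanned 0.000969 to 0.111 for Spn27A and 0.00242 to 0.191 for Spn77Ba.

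Spn42Da, also called Spn4, makes several isoforms with different bait loops, 1 of which stays in the secretory pathway and inhibits furin. It had 38.5, 33.8 and 32.1 FPKM in 50-day heads, against 13.6, 16.1 and 16.5 FPKM in 3-day heads. No 50-day library came near any 3-day one (log2 change 1.23, SE 0.12, adjusted limma p 0.000284). The change lay between 0.96 and 1.31 in 14 alternatives, with the call kept in each. The table gives 1 value per gene, so which isoform changed cannot be read from it.

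Spn88Eb had the largest log2 change of the 15 serpins. Its values were 34.1, 19.2 and 37.9 FPKM at 50 days and 6.86, 8.02 and 8.27 FPKM at 3 days. The 3-day libraries were close together, the 50-day libraries were spread, and 50-day replicate 2 was the lowest of its age but still above every 3-day library. Scaled means were 4.27 times as high at 50 days (log2 change 1.90, SE 0.23, adjusted limma p 0.000708). Over 14 alternatives the change ran from 1.63 to 2.21 and the call held. Spn43Ab was the most abundant serpin at both ages, at 260, 174 and 218 FPKM in 50-day heads and 94.9, 118 and 106 FPKM in 3-day heads. Here too the lowest 50-day value was in replicate 2 and exceeded all 3-day values (log2 change 1.12, SE 0.17, adjusted limma p 0.00188). Spn47C had 12.8, 13.8 and 20.9 FPKM at 50 days, with replicate 3 well above the other two, and 7.07, 8.03 and 7.39 FPKM at 3 days. It rose by 1.06 on the log2 scale (SE 0.15, adjusted limma p 0.00123). Spn55B had 18.1, 22.7 and 26.6 FPKM at 50 days and 13.3, 16.2 and 18.5 FPKM at 3 days. The deposited values of the ages overlap, and they separated only after scaling (log2 change 0.56, SE 0.14, adjusted limma p 0.0136). This call was lost with equal library sums (0.29, adjusted p 0.143) and with the 10 most abundant genes of each library also removed (0.37, adjusted p 0.0561), and the 14 alternatives gave 0.00614 to 0.143.

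Spn31A was the other serpin that was lower in old heads. It had 4.32, 5.18 and 6.14 FPKM at 50 days, against 8.98, 10.6 and 11.04 FPKM at 3 days. The highest 50-day value was below the lowest 3-day value, with a ratio of scaled means of 0.548 (log2 change -0.76, SE 0.11, adjusted limma p 0.00143). The change stayed between -1.01 and -0.69 with the call kept in 14 alternatives. Unlike the call of Spn88Ea, that of Spn31A held without each of the 6 libraries in turn.

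A further 3 serpins were called at levels close to the filter, namely Spn43Ad, Spn42Dc and Spn77Bc. Spn43Ad had 3.19, 2.46 and 2.49 FPKM at 50 days and 1.31, 1.42 and 1.03 FPKM at 3 days. Spn42Dc had 2.08, 2.36 and 2.10 FPKM at 50 days and 1.13, 1.36 and 0.895 FPKM at 3 days. Spn77Bc had 1.98, 2.45 and 2.16 FPKM at 50 days and 0.690, 1.53 and 0.938 FPKM at 3 days. In all 3 genes the ages were apart, and scaled means were 2.09 to 2.35 times as high at 50 days. Their log2 changes of 0.79, 0.65 and 0.72 (adjusted limma p 0.00420, 0.00562 and 0.0100) are reduced by the pseudocount of 1, and with a pseudocount of 0.1 they were 1.16, 1.01 and 1.15.

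**Figure D2:**
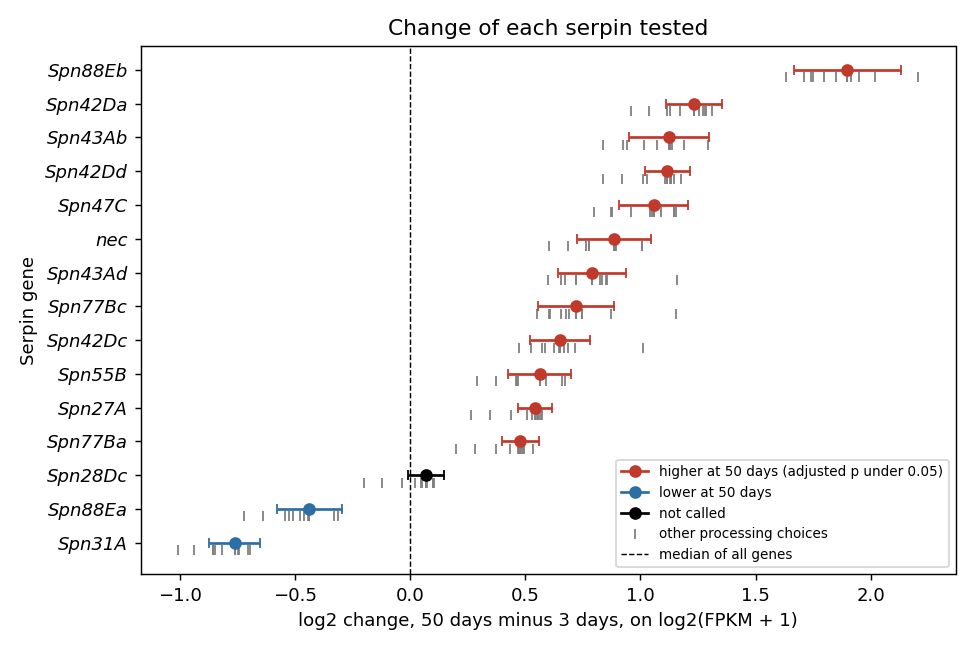
Log2 change, 50 days minus 3 days (horizontal, on log2(FPKM + 1)), of the 15 serpins tested, with the standard error as a bar; grey ticks show the same gene under the other processing choices, a pseudocount of 0.1 included, and the dashed line the median of all genes. Changes run from -0.76 in Spn31A to 1.90 in Spn88Eb, and the ticks of Spn28Dc lie on both sides of the line.

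The remaining 10 serpins were below the filter and were not tested. Spn28B, Spn28Db, Spn28F, Spn38F, Spn42Db, Spn77Bb and Spn85F did not exceed 0.312 FPKM in any library, which corresponds to roughly 2.38 to 11.6 fragments at most. At that depth no difference between the ages can be read from them. Spn42De had 0.926, 0.887 and 1.20 FPKM at 50 days and 0.519, 1.45 and 0.704 FPKM at 3 days, with overlap. Spn43Aa and Spn100A were set apart by 1 library. Spn43Aa was at 4.76 FPKM in 3-day replicate 2 and at 0 to 0.243 FPKM in the other 5 libraries, a gap of 19.6-fold to the next highest. It is 1 of the 33 genes high in that library alone. Spn100A was at 0.775 FPKM in 3-day replicate 2 and at 0 to 0.108 FPKM elsewhere. Without this library the counts over the tested serpins were 12 higher and 1 lower, Spn88Ea having lost its call.

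Many serpins sit beside each other, and the positions below are from the BDGP6.54 annotation, whose assembly, BDGP6, is also the one in the submitters' processing notes. On arm 2R, Spn42Da to Spn42De lie between 6875906 and 6888262, and Spn43Aa, Spn43Ab, Spn43Ad and nec between 7147692 and 7158241. Spn77Ba, Spn77Bb and Spn77Bc lie on 3L from 20317190 to 20344319, and Spn88Ea and Spn88Eb on 3R from 15203069 to 15208762. In the 42D, 43A and 77B groups every tested member was called higher at 50 days (3 of 3, 3 of 3 and 2 of 2). Across all genes tested, 18.3% were called higher and 20.8% lower. The 42D count includes Spn42Dc, whose value is uncertain, as described below. The untested members of the same groups stayed near 0, apart from Spn42De and the 1 high library of Spn43Aa. The 88E pair split, with Spn88Eb higher and Spn88Ea lower. Outside these groups 5 of 11 serpins were tested, of which 3 were higher, 1 was lower and 1 had no call. All 25 are protein-coding genes.

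Ratios within a library do not depend on how libraries are scaled, so the pairs of tested neighbours were also compared that way. Spn88Eb was 0.890, 0.381 and 0.680 times Spn88Ea in 50-day libraries, against 0.112, 0.119 and 0.0995 times in 3-day libraries. The ratio was higher in every 50-day library, by 2.48 on the log2 scale. The exact permutation test gave two-sided p = 0.1, the smallest that 3 against 3 allows, and 0.4 adjusted over 6 pairs. Because Spn88Eb was higher and Spn88Ea lower without overlap, that separation and p-value were fixed in advance. For this pair the ratio adds only the size of the difference. The Spn42Dd to Spn42Dc ratio was 44.1, 34.6 and 41.1 at 50 days and 35.8, 32.5 and 48.0 at 3 days, so the ages overlapped (exact permutation p = 0.9). Spn43Ab was 81.4, 70.9 and 87.5 times Spn43Ad at 50 days and 72.4, 83.1 and 102 times at 3 days, again with overlap (exact permutation p = 0.6). The other 3 pairs, Spn42Da to Spn42Dc, nec to Spn43Ad and Spn77Ba to Spn77Bc, had exact permutation p-values of 0.4, 0.2 and 0.2. With 3 libraries an age, such a test cannot pass 0.05 for any pair.

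**Figure D3:**
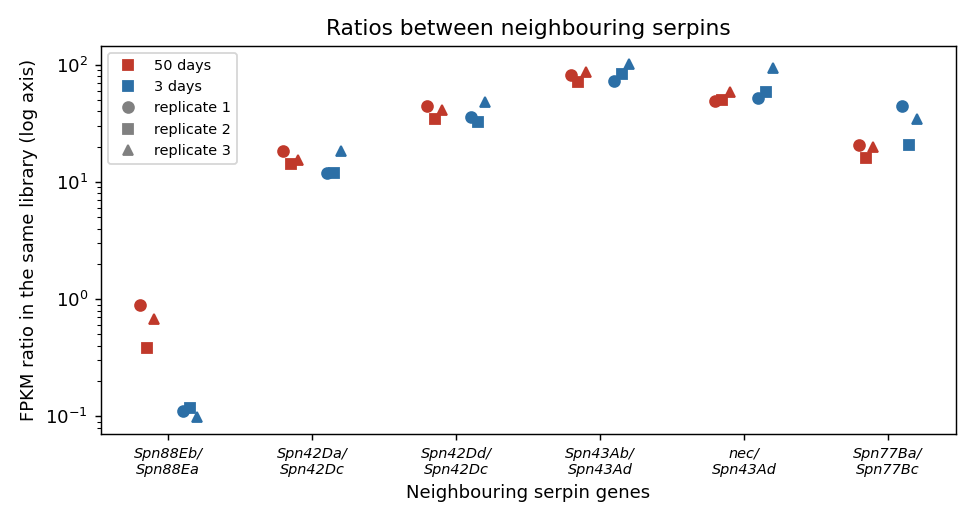
Ratio of FPKM between neighbouring tested serpins in the same library (vertical, log axis) for 6 pairs, in the 3 libraries from 50-day heads (red, left) and the 3 from 3-day heads (blue, right). The Spn88Eb to Spn88Ea ratio lies between 0.381 and 0.890 at 50 days and between 0.0995 and 0.119 at 3 days, while the Spn42Dd to Spn42Dc and Spn43Ab to Spn43Ad ratios overlap.

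Some of these genes share exonic bases with another gene, and whether the counting used strand is not given in the sources used here. Spn42Dc and Spn42Dd overlap by 63 exonic bases on the same strand, so the value of Spn42Dc, the far less abundant of the pair, is uncertain. Spn42Da shares 281 and Spn77Ba 94 exonic bases with an antisense RNA each, and these RNAs were not analysed here. On the opposite strand, Spn43Aa shares 116 exonic bases with CG12828 and Spn47C shares 62 with an annotated INE-1 element. Neither of these partners was analysed here, so their part in the values of Spn43Aa and Spn47C was not tested. Spn88Ea shares 6 exonic bases with CG42542 on the opposite strand. CG42542 had 22.9, 24.5 and 25.0 FPKM at 50 days and 26.1, 25.3 and 27.0 FPKM at 3 days, with a log2 change of -0.0056 (adjusted limma p 0.958). Of the 25 serpins, 16 share no exonic base with another annotated gene.

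The protease cascade upstream of Spätzle, which includes known serpin targets, was examined next. The gene lists used from here on were chosen with earlier results of these data known. Of 13 listed proteases and protease-like proteins upstream of Spätzle, 11 were in the table and 7 were tested. Of these 6 were called higher, where 18.3% of all genes were, and grass was not called. The 6 include modSP and spirit, which were not listed as serpin targets, so the count is not one of serpin targets alone. The median log2 change was 0.67 over the 7. Hayan, a protease shared by the Toll and melanization cascades, had 13.6, 11.9 and 15.1 FPKM at 50 days and 4.26, 5.64 and 6.23 FPKM at 3 days. SPE, the enzyme that cleaves Spätzle, had 141, 105 and 145 FPKM at 50 days and 53.9, 56.6 and 64.5 FPKM at 3 days. Both were higher in every 50-day library, by 1.29 (SE 0.14, adjusted limma p 0.000384) and 1.24 (SE 0.15, adjusted p 0.000678) on the log2 scale. Persephone (psh), the protease held in check by nec, had 35.3, 29.3 and 28.6 FPKM at 50 days and 20.6, 20.3 and 23.7 FPKM at 3 days, and rose by 0.61 on the log2 scale (SE 0.13, adjusted limma p 0.00697). Easter (ea), the embryonic target of Spn27A, had 12.04, 17.1 and 16.1 FPKM at 50 days and 11.1, 13.1 and 13.2 FPKM at 3 days. The deposited values overlapped. Its call (0.34, adjusted limma p 0.0407) was lost in 9 of 14 alternatives, among them unscaled values (0.24, adjusted p 0.186) and equal library sums (0.076, adjusted p 0.708). Leaving out 3-day replicate 1 or 2 gave adjusted p-values of 0.103 and 0.0770, and leaving out 50-day replicate 2 or 3 gave 0.137 and 0.110. The alternatives spanned 0.0164 to 0.708. Grass had 8.53, 11.6 and 13.6 FPKM at 50 days and 14.1, 15.3 and 14.0 FPKM at 3 days (log2 change -0.26, adjusted limma p 0.127). Grass was called lower when 50-day replicate 3 was left out (-0.37, adjusted p 0.0395). With all libraries kept, it was called lower with equal library sums (-0.52, adjusted p 0.0219). The same held with the 10 most abundant genes of each library also removed (-0.45, adjusted p 0.0360). The 14 alternatives spanned 0.0219 to 0.339.

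Of 9 enzymes of melanization and its precursors, 8 were tested, of which 4 were called higher and 3 lower, against 18.3% higher and 20.8% lower of all genes. The median log2 change was 0.10. Those higher were MP1, Sp7, yellow-f and yellow-f2, and those lower were PPO1, PPO2 and ple, the tyrosine hydroxylase. MP1, a melanization protease, had 56.7, 44.6 and 44.6 FPKM at 50 days, against 23.1, 23.2 and 23.8 FPKM in 3-day heads (log2 change 1.12, SE 0.13, adjusted limma p 0.000566). Sp7, the protease upstream of prophenoloxidase that is also called MP2, had 29.0, 31.5 and 37.5 FPKM at 50 days and 26.9, 25.8 and 28.9 FPKM at 3 days. Those ranges were next to each other (log2 change 0.35, SE 0.094, adjusted limma p 0.0186). The Sp7 call was lost when 3-day replicate 2 (adjusted p 0.0702) or 50-day replicate 3 (0.0659) was left out, with values unscaled (0.25, adjusted p 0.102), with equal library sums (0.078, adjusted p 0.658) and with the 10 most abundant genes of each library also removed (0.16, adjusted p 0.299). For Sp7 the 14 alternatives spanned 0.0165 to 0.658. The yellow-f and yellow-f2 products convert dopachrome on the way to melanin, and their log2 changes were 0.91 and 1.12 (adjusted limma p 0.00135 and 0.00383). The log2 change of ple was -0.54 (adjusted limma p 0.0156), a call lost without 3-day replicate 1 (-0.41, adjusted p 0.0555) or 50-day replicate 1 (-0.47, adjusted p 0.0563), with 0.00142 to 0.0563 spanned by the 14 alternatives. The prophenoloxidases, made in the crystal cells of the blood, were the largest falls of the list. PPO2 had 10.1, 8.63 and 9.27 FPKM at 50 days and 18.5, 43.4 and 34.6 FPKM at 3 days (log2 change -1.50, SE 0.26, adjusted limma p 0.00313). PPO1 had 9.32, 5.64 and 7.16 FPKM at 50 days and 11.4, 32.5 and 20.2 FPKM at 3 days (log2 change -1.22, SE 0.33, adjusted limma p 0.0212). Both were most abundant in 3-day replicate 2, and no 50-day library reached any 3-day one. The PPO1 call was lost when 3-day replicate 2 or 3 was left out (-0.88 and -1.20, adjusted p 0.0504 and 0.0565) and when 50-day replicate 2 was (-1.05, adjusted p 0.0670), and the 14 alternatives spanned 0.000455 to 0.0670.

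The convertases, which include the furin that Spn42Da can inhibit, were not called. Fur1 had 11.1, 9.93 and 10.6 FPKM at 50 days and 10.2, 10.01 and 8.81 FPKM in 3-day heads (log2 change 0.21, adjusted limma p 0.121). Fur2 had 23.6, 25.2 and 25.7 FPKM at 50 days and 25.4, 23.7 and 19.4 FPKM at 3 days (0.23, adjusted limma p 0.114). The deposited values of both overlapped between the ages. In scaled values all 50-day libraries lay above all 3-day libraries in both, as in 26.0% of all genes tested. Both signs turned with equal library sums (-0.052 and -0.048). Of the 3 convertases tested with limma, 0 were called, where 39.1% of all genes were, and 0 had an unadjusted p under 0.05. With only 3 genes, that count cannot set the convertases apart from other genes. Fur2 was called when 3-day replicate 1 was left out (0.33, adjusted p 0.0409, with 0.0409 to 0.870 spanned by the 14 alternatives). The third, amon, a convertase of neuropeptide precursors, had 61.0, 75.1 and 75.0 FPKM at 50 days and 82.3, 78.6 and 79.7 FPKM at 3 days (log2 change -0.085, adjusted limma p 0.456). It was called lower with equal library sums (-0.37, adjusted p 0.0435, with 0.0435 to 0.808 spanned by the 14 alternatives).

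**Figure D4:**
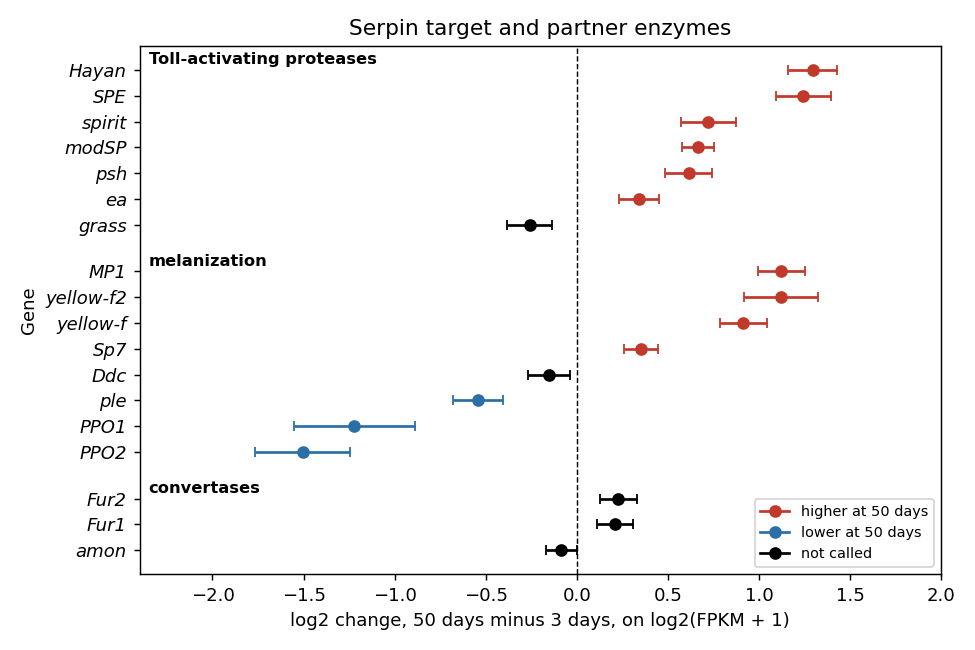
Log2 change, 50 days minus 3 days (horizontal, on log2(FPKM + 1)), with the standard error as a bar, of the tested proteases upstream of Toll, melanization enzymes and convertases. Hayan, SPE and MP1 lie at 1.29, 1.24 and 1.12, while PPO1 and PPO2 lie at -1.22 and -1.50.

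Genes of peptides that respond to Toll were measured in the same libraries. Of 11 listed, 10 were tested and 8 were called higher at 50 days, where 18.3% of all genes were, with a median log2 change of 2.00. The count was 6 without 3-day replicate 1 and 9 without 50-day replicate 2. BomBc1, listed as IM23 (log2 change 2.19, adjusted limma p 0.0422), lost its call in 8 of 14 alternatives, which spanned 0.00750 to 0.125. The largest changes were those of Metchnikowin (Mtk), at 7928, 3440 and 8735 FPKM at 50 days and 22.9, 128 and 23.5 FPKM at 3 days (log2 change 7.30, adjusted limma p 0.000193), and of Drosomycin (Drs), at 1032, 103 and 650 FPKM at 50 days and 21.5, 76.5 and 31.5 FPKM at 3 days (3.53, adjusted p 0.0111). Among the 50-day libraries replicate 2 was the lowest in all 10 of these peptides in deposited values. In deposited values it was also the lowest in 6 of the 12 serpins called higher, replicate 1 in 5 and replicate 3 in 1. Spn88Eb, Spn43Ab, nec, Spn42Dd, Spn77Ba and Spn43Ad were the 6. Scaling raised replicate 1 the most of the 50-day libraries (factor 1.11), so fewer than 5 serpins may be lowest in it after scaling. The split was not counted in scaled values, and no contrast with the peptides is drawn from it. Without 50-day replicate 2 the serpin counts were 12 higher and 1 lower.

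Markers of the cell types of the head were counted in the same way, to be read against the 18.3% of all genes called higher and the 20.8% called lower. Of 8 fat body markers 6 were called higher, with a median log2 change of 1.13 and a summed level of 3566 to 4628 FPKM at 50 days, against 1753 to 2194 FPKM at 3 days. Of 9 tested hemocyte markers 1 was called higher and 3 lower, with sums of 135 to 157 FPKM at 50 days and 152 to 195 FPKM at 3 days. PPO1 and PPO2 are 2 of those 3, and the 44.4% of hemocyte markers called is near the 39.1% of all genes. Lower calls were made for 4 of 5 neuronal, 3 of 5 photoreceptor and 2 of 3 tested muscle markers, and glial markers were called higher in 1 and lower in 2 of 5 cases. The part of these shifts in the serpin values was not tested.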

How the data were processed

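The labels give 27 samples, and the table used here has 6 columns, matched by library name to the 3-day and 50-day Oregon-R samples, with 0 columns unmatched. Samples of the diet and overexpression experiments were not analysed here. The submitters' processing notes name fastp, HISAT2, HTSeq and build BDGP6 without role or order. The authors deposited length-scaled values that are not whole numbers, read here as FPKM, although TPM of a larger gene set could have the same look and would differ by a constant per library. The design allowed for counts, and limma was used because the values are not counts.

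Library scaling used trimmed-mean factors against 3-day replicate 1 (genes above 1 FPKM in both, 30% of ratios and 5% of levels trimmed at each end). Genes with a scaled mean of at least 1 FPKM entered limma 3.58.1 in R 4.3.3 on log2(FPKM + 1), with a mean-variance trend and age as the factor. P-values were adjusted over all genes tested. Printed values and SD are the deposited ones, while ratios of means and statements on separation use scaled values unless deposited values are named. The labels call replicates biological triplicates, and name no batch.

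Named by rule are all serpins, fixed target enzymes and the 2 largest called changes of each partner list. Some other list members, such as yellow-f, yellow-f2, ple, amon, BomBc1 and BaraA1, are named outside that rule. Members and lists were chosen with earlier results of these data known. Some list genes carry older symbols in the table and were matched through RefSeq synonyms.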

Additional observations from a re-analysis of the deposited data

How the results depend on the processing

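The count of genes called was 3418, with 2702 to 3859 under 8 alternatives and 2619 to 3718 when 1 library was left out. Serpins called higher numbered 12 as reported, 9 after rescaling to the same sum, 9 with a mean of at least 5 FPKM (which leaves 12 serpins) and 11 with the 10 most abundant genes of each library removed and sums made equal, an alternative chosen after seeing the data. With 1 library left out the count stayed at 12 in each of the 6 fits. Serpins called lower numbered 2, with 1 when no filter was used and 1 to 2 when 1 library was left out, Spn88Ea being the one lost. The number of convertases called was 0 as reported, 1 after rescaling to the same sum (amon) and 0 to 1 when 1 library was left out (Fur2). Signs turned for Spn28Dc (-0.20 after rescaling to the same sum, -0.035 unscaled, -0.12 without the most abundant genes), Fur1 (-0.052) and Fur2 (-0.048), both with equal library sums, and BaraA1, listed as CG33470 (-0.011 with equal library sums and -0.20 to 1.004 when 1 library was left out). The cause was not tested. With the replicate number as a block, 2702 genes, 12 serpins higher and 2 lower were called. Libraries with the same number did not deviate together (correlations of -0.21, -0.10 and -0.24), so the numbers were not taken as pairs. Depth is not stated and was only estimated from the lowest step of the values. Counting error was not modelled, and precision rests on 3 libraries an age.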

Other observations

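The library that carried Spn43Aa, 3-day replicate 2, also held other transcripts that were near 0 elsewhere. The highest were CG13159 at 187 FPKM and CG9184 at 112 FPKM in that library, against 0 FPKM and at most 0.442 FPKM in the other 5. Among the rest were the abdominal Hox gene abd-A (1.55 FPKM), the ecdysone-inducible gene ImpE2 (3.72 FPKM), Osi7 (2.18 FPKM), and the neural precursor genes nerfin-1 (2.18 FPKM) and cas (1.03 FPKM). abd-A was listed at 0 in the other 5 libraries. These genes were chosen after their values were seen, and the source of the signal was not tested.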
